A study of Homo sapiens with 4 samples.

Results

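Transcription and splicing factors of the epithelial state were examined in the established human lung cancer line H358 (adenocarcinoma) after knockdown of ADAR, an RNA-editing enzyme that deaminates adenosines of double-stranded RNA. The genes were ESRP1, ESRP2, GRHL1, GRHL2, OVOL1, OVOL2, ELF3, EHF and KLF5, and all their probes were taken by platform gene symbol. These 9 genes, of 20046 with a named probe, had 11 of the 47322 probes on the array, 3 of them for GRHL1 and 1 for each other gene. The 4 arrays were Illumina BeadChips of bulk RNA from H358 cells. In the scrambled group, 2 arrays held RNA of cells transfected with a scrambled shRNA, a short hairpin RNA with no intended target. In the ADAR shRNA group, 2 arrays held RNA of cells transfected with an shRNA against ADAR, and both titles carry the same letter, B. The series calls the 2 samples of a group biological replicates, but whether they came from separate cultures is not given, so the spread between them may be technical. In bulk RNA, fewer cells that express a gene and less RNA per cell cannot be told apart.

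Epithelial cells hold their identity through a small set of nuclear factors. Grainyhead-like (GRHL) proteins bind and open enhancers of junction genes such as E-cadherin, and OVO-like (OVOL) zinc finger proteins repress genes of the mesenchymal state, ZEB1 among them. ELF3 and EHF are ETS-family activators of epithelial differentiation, KLF5 is a zinc finger activator of epithelial growth, and the epithelial splicing regulatory proteins ESRP1 and ESRP2 bind pre-mRNA and set the exons that epithelial cells include. ZEB, SNAI and TWIST factors act against this programme, in part by binding E-box sequences of epithelial promoters.

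Arrays of the same group correlated at 0.982 for scrambled and 0.986 for ADAR shRNA over 21263 tested probes, which are not independent replicates. The ADAR shRNA arrays were dimmer, with an upper quartile of raw signal of 94.5 and 92.1 against 143 and 115 on the scrambled arrays. The knockdown target ADAR had a log2 level of 11.06 ± 0.25 in scrambled cells and 10.03 ± 0.22 in ADAR shRNA cells at its brightest probe (SD, n = 2 per group), a change of -1.03 (SE 0.22, limma adjusted p = 0.00561). A second ADAR probe, ILMN_2320964, differed by -0.19 (SE 0.25, adjusted p = 0.557). The labelled lung epithelium was checked against 10 markers: EPCAM, NKX2-1, KRT7, KRT8, KRT18 and KRT19 were detected in scrambled cells, EPCAM and NKX2-1 were undetected on both ADAR shRNA arrays, and the surfactant genes SFTPA1, SFTPB and SFTPC and the protease gene NAPSA were undetected on all 4 arrays. CDKN2A, which encodes inhibitors of the cell cycle, read 271 and 219 on the scrambled arrays at its probe ILMN_1717714 and was undetected on both ADAR shRNA arrays (53.8 and 55.1). MTAP, its chromosomal neighbour and an enzyme of methionine salvage, rose by 1.33 (SE 0.20, adjusted p = 0.00109). About as many probes passed the test as did not, and whether both groups carry the same genome was not tested, so each difference below is one between these RNA samples. Neither the labels nor the files give a chip or scan batch.

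Upstream sequence was at hand for GRHL1, ELF3, EHF and KLF5 (4 of the 9 genes). The 250 bases before the RefSeq start site (build GRCh38.p14, plus strand) are shown for 3 of them, ELF3 and KLF5 because their transcripts fell and GRHL1 because its difference did not pass the test. Capitals mark matches, on either strand, to CAGGTG, the E-box that ZEB and SNAI proteins bind, or to CACCC, a core of KLF sites. The ELF3 window is chr1:202010337-202010586, the KLF5 window chr13:73058755-73059004, which lies inside the annotated span of KLF5, and the GRHL1 window chr2:9951443-9951692.
ELF3: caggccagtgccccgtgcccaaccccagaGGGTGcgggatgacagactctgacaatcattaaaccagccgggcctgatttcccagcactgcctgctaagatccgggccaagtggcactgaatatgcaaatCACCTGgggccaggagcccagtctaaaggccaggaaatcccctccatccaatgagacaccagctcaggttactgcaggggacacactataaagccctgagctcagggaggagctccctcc
KLF5: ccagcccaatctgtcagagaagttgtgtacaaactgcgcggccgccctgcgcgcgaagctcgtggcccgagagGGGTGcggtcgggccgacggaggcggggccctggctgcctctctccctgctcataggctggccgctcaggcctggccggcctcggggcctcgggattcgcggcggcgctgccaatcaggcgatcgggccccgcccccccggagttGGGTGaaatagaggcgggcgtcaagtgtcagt
GRHL1: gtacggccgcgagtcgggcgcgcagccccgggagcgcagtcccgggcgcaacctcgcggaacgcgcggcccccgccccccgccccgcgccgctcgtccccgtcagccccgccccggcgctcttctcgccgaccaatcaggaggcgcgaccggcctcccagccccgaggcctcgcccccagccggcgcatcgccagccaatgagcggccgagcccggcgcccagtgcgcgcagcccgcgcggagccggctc

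The ELF3 window held 1 E-box, which starts 120 bases before the start site, and 1 KLF core, and the motifs do not overlap. KLF5 held 2 KLF cores and no E-box, and GRHL1 and EHF held neither motif. The EHF window, chr11:34632316-34632565, lies inside the annotated span of EHF, as that of KLF5 does for its gene. Of all 35116 upstream windows of this length, 17.5% held the E-box and 54.7% the KLF core. ACCGGT, a Grainyhead core, GGAAGT, a longer form of the GGAA core of ETS sites, and CCGTTA, an OVOL core, were matched in none of the 4 windows. They were held by 1.45%, 19.5% and 2.45% of all windows. The shorter GGAA was not searched for, and it occurs in the ELF3 and GRHL1 windows. The windows differed in base composition, with 47.6% G and C for EHF, 58.4% for ELF3, 70.8% for KLF5 and 81.6% for GRHL1. A match is a run of letters and not a measured binding site.

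A probe was called detected on an array when its detection p-value, which compares it with the array's negative controls, was under 0.05. The lowest raw signal of a detected probe was 70.7 and 65.2 for the scrambled pair, against 63.6 and 61.1 for the ADAR shRNA pair. Probes detected on at least 2 of the 4 arrays were tested. Of the 11 probes 6 passed, 1 each of ESRP1, GRHL1, GRHL2, OVOL2, ELF3 and KLF5, and each of these was detected on both scrambled arrays. None was detected on more than 1 ADAR shRNA array, so a probe of this set entered the test through the scrambled side, and the count of falls among them is a description. The probes of ESRP2 and OVOL1 and 2 of the 3 GRHL1 probes were undetected on all 4 arrays, and the EHF probe was detected on 1.

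**Figure D1:**
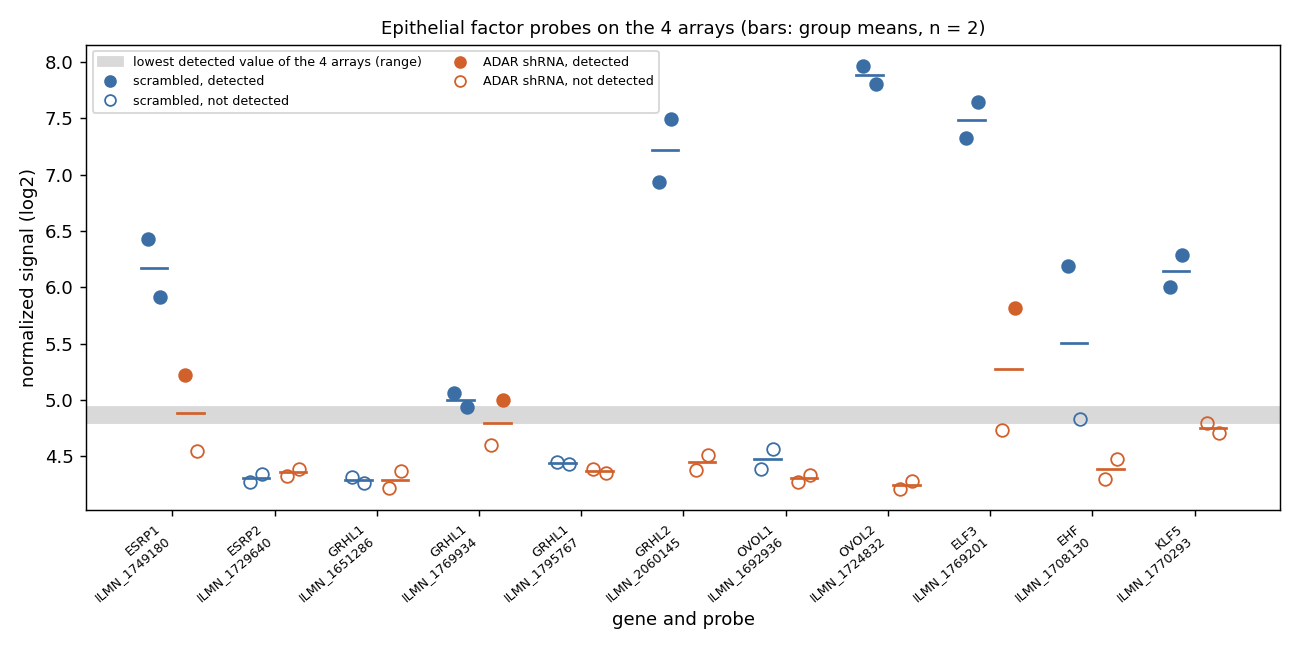
Normalized signal on the log2 scale (y) of each of the 11 probes (x) on the 2 scrambled and 2 ADAR shRNA arrays, with a short bar for each group mean. Filled points were detected, open points were not, and the grey band spans the lowest detected value of the 4 arrays (4.79 to 4.94). The 2 scrambled arrays lie above both ADAR shRNA arrays for the tested probes of ESRP1, GRHL2, OVOL2, ELF3 and KLF5, and the groups overlap for the tested GRHL1 probe.

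GRHL2 fell from a clear signal to one not above background. Scrambled arrays gave raw signals of 219.8 and 243, ADAR shRNA arrays 48.7 and 52.6. Both scrambled arrays were high, both ADAR shRNA arrays were below the lowest detected signal, and the groups did not overlap. The normalized level went from 7.22 ± 0.40 to 4.45 ± 0.10 (SD, n = 2 per group), a fitted log2 change of -2.77 (SE 0.23, limma adjusted p = 5.62e-05). Since neither ADAR shRNA array measured it, the fold is a bound, which sets the mean of the bright arrays against the higher of the probe's own value and the lowest detected value on each dim array. The bound moved with the background step, from 4.93-fold with the correction used to 2.81-fold with none, so each fold written as at least is the lowest over that correction, an offset of 50 and no correction. Such a bound rests on group means and leaves out the spread between arrays, so it is not a confidence limit. GRHL2 was at least 2.81-fold lower. GRHL1 did not follow within this test. Its probe ILMN_1769934 read 80.5 and 67.7 in scrambled cells against 56.4 and 63.0 in ADAR shRNA cells, and was detected on 1 of the latter arrays. On the normalized scale the groups overlapped, with a log2 difference of -0.20 (SE 0.21, 95% interval -0.69 to 0.29, adjusted p = 0.465). That interval includes both no change and a moderate fall, and the signal was near background in every array.

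OVOL2, a zinc finger repressor of mesenchymal genes, had the largest fitted fall of the 6 tested probes. Scrambled cells gave raw signals of 419.8 and 293, and ADAR shRNA cells 36.7 and 42.7, both undetected. The normalized level was 7.88 ± 0.12 against 4.25 ± 0.05 (SD, n = 2 per group), a fitted change of -3.63 (SE 0.19, limma adjusted p = 6.71e-06), and OVOL2 was at least 4.12-fold lower. The groups were far apart relative to the spread within each. OVOL1, its paralogue in epidermis and other epithelia, read 54.5 and 57.7 against 42.8 and 45.7. All 4 of its values were below the lowest detected signal of their array, so no level or fold can be given for OVOL1 here.

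ELF3, the ETS activator, fell by 2.21 on the log2 scale (SE 0.34, limma adjusted p = 0.00113). Raw signals were 278 and 266 for scrambled cells, against 59.6 and 80.5 for ADAR shRNA cells. The second ADAR shRNA array alone detected it, and both lay well under the scrambled pair. The normalized level went from 7.48 ± 0.22 to 5.27 ± 0.76 (SD, n = 2 per group), the widest spread within the ADAR shRNA group among the 11 probes. The raw values of 59.6 and 80.5 carried bead standard errors of 4.13 and 5.34 over 20 and 17 beads. ELF3 was at least 2.74-fold lower.

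EHF, the other ETS factor, was not tested because it was detected on 1 array. Raw signals were 144 and 65.1 for scrambled cells, against 44.2 and 51.5 for ADAR shRNA cells. The scrambled arrays disagreed: the first was well above background, and the second missed the detection threshold with a detection p of 0.0506. Their bead standard errors of 6.64 and 4.54, over 26 and 28 beads, were small beside that gap. Both scrambled values were above both ADAR shRNA values, but with no filter on detection the log2 difference of -1.12 (SE 0.46) did not pass (limma adjusted p = 0.197).

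KLF5, the zinc finger activator, read 131 and 121 in scrambled cells, against 61.0 and 57.5, both undetected, in ADAR shRNA cells. The normalized level was 6.14 ± 0.20 against 4.76 ± 0.06 (SD, n = 2 per group). Its fitted change was -1.39 (SE 0.20, limma adjusted p = 0.000778), and KLF5 was at least 1.63-fold lower.

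Of the splicing factors, ESRP1 was measured and ESRP2 was not above background. ESRP1 read 165 and 101 in scrambled cells, against 68.6 and 53.5 in ADAR shRNA cells, where the first array alone detected it. The scrambled values were both higher, although they differed from each other by more than their bead standard errors of 5.41 and 3.72. The normalized level went from 6.18 ± 0.36 to 4.88 ± 0.48 (SD, n = 2 per group), a fall by 1.29 (SE 0.28, limma adjusted p = 0.00631), and was at least 1.57-fold lower. ESRP2 read 46.1 and 48.2 against 46.0 and 48.1, and all 4 values were undetected.

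Across all 21263 tested probes, 26.3% fell and 24.2% rose at an adjusted p under 0.05, and 38.7% had both scrambled arrays above both ADAR shRNA arrays. Of the 6 tested probes 5 fell, 0 rose and 5 had such separated groups, which the way they passed the filter favours. OVOL2 lay among the lowest 0.861% of fitted changes, GRHL2 among the lowest 2.02%, ELF3 among the lowest 3.52%, KLF5 among the lowest 9.38% and ESRP1 among the lowest 10.6%, while 40.8% of probes were as low as GRHL1 or lower. How the split of directions falls depends on scaling: 48% of called probes rose here, against 25% when arrays were scaled to 1 median and 19.2% when they were not normalized to each other. The median of all tested probes moved from 0.00061 to -0.38 and -0.52 in those settings. Relative to that median, under either setting, OVOL2 lay at -3.54, GRHL2 at -2.66, ELF3 at -2.25, KLF5 at -1.26, ESRP1 at -1.21 and GRHL1 at 0.08.

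**Figure D2:**
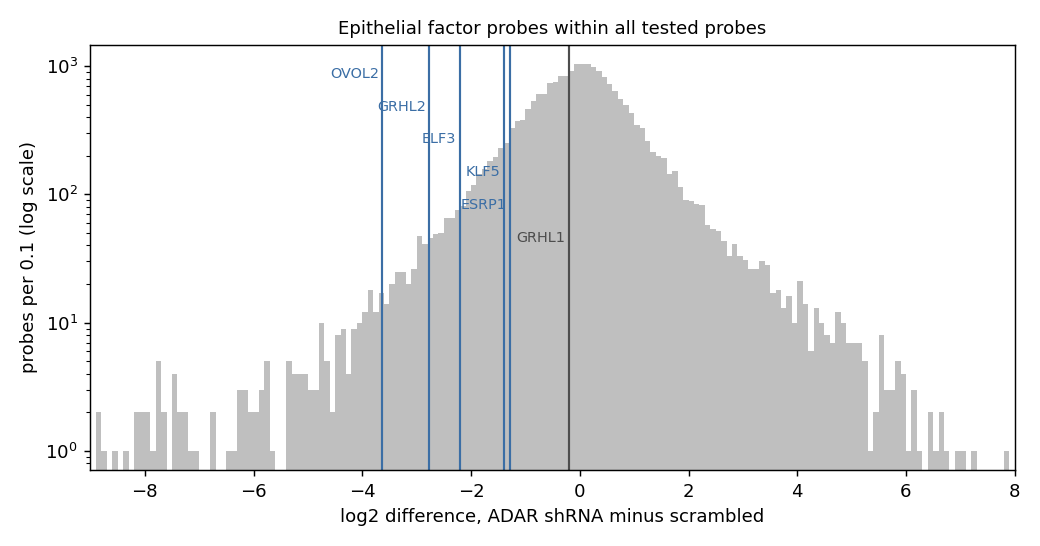
Number of tested probes per 0.1 of log2 difference (y, log scale) against the log2 difference, ADAR shRNA minus scrambled (x), for all 21263 tested probes. Vertical lines mark the tested probes of OVOL2 (-3.63), GRHL2 (-2.77), ELF3 (-2.21), KLF5 (-1.39) and ESRP1 (-1.29) in blue, left of the peak near 0, and GRHL1 (-0.20) in dark grey, close to it.

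The sizes of these falls were compressed by milder background handling, while each call held. With no background correction the log2 changes were -2.75 for OVOL2, -1.82 for GRHL2, -1.51 for ELF3, -0.79 for KLF5 and -0.76 for ESRP1. An offset of 50 gave -2.36, -1.72, -1.53, -0.79 and -0.74 in the same order, with adjusted p-values up to 0.014. The fitted sizes of GRHL2, KLF5 and ESRP1 thus moved by over 1.5 times with the background step in both settings, and that of OVOL2 with the offset.

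**Figure D3:**
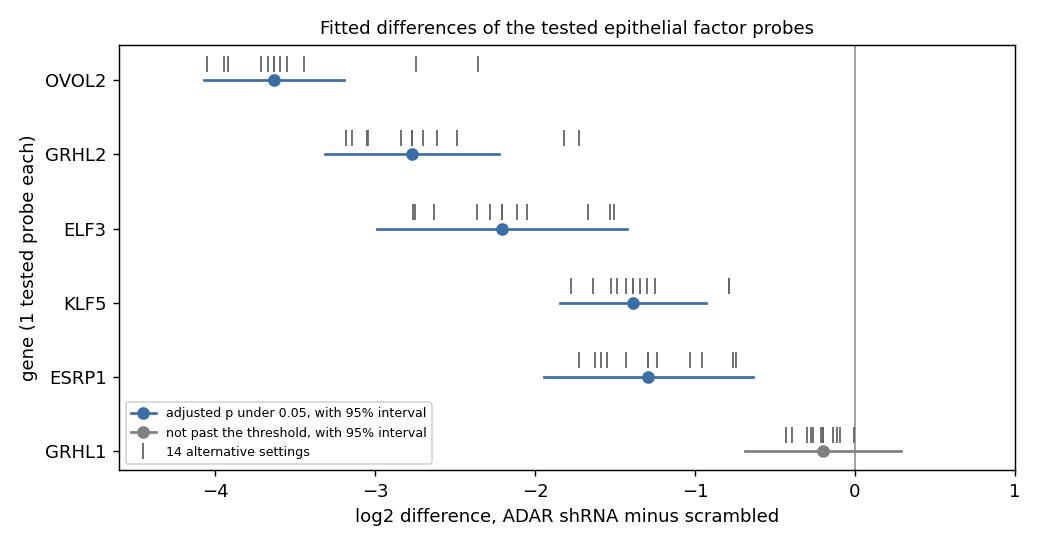
Fitted log2 difference, ADAR shRNA minus scrambled (x), of the 6 tested probes (y), with the 95% interval as a line and the values under 14 alternative settings as ticks above it. The intervals of OVOL2, GRHL2, ELF3, KLF5 and ESRP1 lie below 0, and that of GRHL1 (-0.69 to 0.29) spans it.

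Relatives of these factors by family moved in both directions. Of 14 family members with a probe 10 were tested, 3 fell and 2 rose, with a median of -0.32 against -0.08 over 12197 genes by brightest probe, of which 30.3% fell and 24.2% rose. SPDEF, an ETS factor of secretory epithelium, was undetected on both ADAR shRNA arrays and at least 2.38-fold lower (limma adjusted p = 0.000126). UBP1, a CP2 factor related to Grainyhead, fell by 0.93 (SE 0.19), and KLF6 fell by 0.88 (SE 0.20). In contrast to KLF5, KLF2, a factor best known from endothelium and quiescent T cells, rose by 2.14 (SE 0.19, adjusted p = 7.63e-05), from raw signals of 443 and 398 to 1054 and 974. KLF4, a factor of epithelial barrier and stem cells, rose by 1.69 (SE 0.21, adjusted p = 0.000389), and its other probe by 1.12. GRHL3, another Grainyhead-like factor, chosen after its values were seen, was undetected in scrambled cells at its 3 probes, and 1 of them read 61.8 and 84.9 on the ADAR shRNA arrays, where the second alone detected it.

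Repressors of the epithelial programme gave no common direction. ZEB1, SNAI1, SNAI3 and TWIST1 were undetected on all 4 arrays. SNAI2, a repressor of E-cadherin, read 855 and 719 in scrambled cells, against 53.1 and 44.3 in ADAR shRNA cells, and was at least 8.93-fold lower (limma adjusted p = 2.41e-06), and at least 3.11-fold at its other probe. ZEB2, a zinc finger repressor of E-cadherin, read 66.3 and 61.9, both undetected, with the scrambled shRNA, against 88.1 and 72.6 in ADAR shRNA cells at its probe ILMN_1688698, at least 1.42-fold higher (adjusted p = 0.00546). Its other probe, ILMN_1820767, was not tested and ran the other way, with 62.7 and 66.2, the second detected, against 55.2 and 49.6, both undetected. TWIST2, a basic helix-loop-helix factor, was likewise undetected at 55.2 and 56.1 and read 84.7 and 73.6, at least 1.4-fold higher (adjusted p = 0.00161). TCF4, an E-protein, differed by -0.21 (SE 0.24, adjusted p = 0.501). Of the 8 repressors 4 were tested, 1 fell and 2 rose, against 30.3% and 24.2% of all genes, and both that rose stayed near background. At their tested probes SNAI2 was undetected on both ADAR shRNA arrays, and ZEB2 and TWIST2 on both scrambled arrays. They passed the filter through the group where they were higher, so these counts are a description.

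Epithelial junction and surface genes, a list that also held KRT19, RAB25 and AP1M2, were lower almost throughout. Known targets of GRHL2, ELF3 and their relatives are among them. Of 22 genes listed 20 had a probe and all 20 were tested: 19 fell and 0 rose, or 95% fallen against 30.3% of all genes, with a median of -3.21 against -0.08. On neither ADAR shRNA array were 16 of these 20 genes detected. Those 16 passed the filter through the scrambled side, where they were higher, so the counts and the median are a description. EPCAM, an epithelial adhesion molecule, was undetected on both ADAR shRNA arrays and at least 118-fold lower, with its other probes at least 64.4-fold and 17.8-fold lower. CDH1, which encodes E-cadherin, was undetected there too and at least 51.8-fold lower, and CDH3, which encodes P-cadherin, at least 20.1-fold lower. The remaining gene, CLDN4, a tight junction gene picked once its values were known, lay at -0.37 (SE 0.22, limma adjusted p = 0.21). Other lineage factors of lung and foregut epithelium were split. Of 5 tested genes 3 fell (60%) and 1 rose (20%), against 30.3% and 24.2% of all genes, with a median of -3.01. Of these 5, 3 were undetected on both ADAR shRNA arrays and 1 on both scrambled arrays. Those passed the filter through the group where they were higher, so the counts are a description. FOXA2, a forkhead factor of endoderm, read 1619 and 1689 against 51.2 and 46.4 and was at least 19.4-fold lower, SOX2 at least 4.98-fold lower and NKX2-1, the lung lineage factor, at least 3.16-fold lower (adjusted p = 1.48e-06, 1.14e-05 and 2.74e-05). CEBPA, a leucine zipper factor of liver, lung and myeloid cells, was undetected in scrambled cells and at least 2.26-fold higher (adjusted p = 6.48e-05).

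Genes with exons known to be set by ESRP proteins were read for total signal, since a probe covers 1 short stretch and splicing itself was not measured. Of 15 genes with a probe 13 were tested, 3 fell and 4 rose, with a median of 0.24. Thus 23.1% of those tested fell and 30.8% rose, against 30.3% and 24.2% of all genes. RALGPS2, a Ral exchange factor, was at least 2.29-fold lower, SCRIB, a polarity scaffold, fell by 1.51 (SE 0.22), and CTNND1, which encodes p120 catenin and was detected on 1 of 2 ADAR shRNA arrays, was at least 1.42-fold lower. PLEKHA1 rose by 2.16 (SE 0.23) and the kinase gene SLK by 1.26 (SE 0.19), and ARHGEF11, detected on 1 of 2 scrambled arrays, was at least 1.81-fold higher. SLK did not pass when arrays were not normalized to each other (0.48, limma adjusted p = 0.135). Probes of 1 gene could differ: those of CD44, chosen after their values were seen, read -0.47 (adjusted p = 0.175), 0.30 (adjusted p = 0.28) and 0.74 (adjusted p = 0.0229), and the other tested CTNND1 probes lay between -0.50 and 0.11. FGFR2, whose IIIb exon is the classic ESRP target, was undetected on all 4 arrays.

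Other regulators of the same kind of exon were detected on all 4 arrays at their brightest probes. Of 12 tested genes 6 fell and 0 rose, or 50% fallen against 30.3% of all genes, with a median of -0.65 against -0.08. HNRNPM, which favours mesenchymal splicing, fell by 1.05 (SE 0.18, limma adjusted p = 0.00224), with other probes at -0.92 and -1.23. CELF1 fell by 1.03 (SE 0.19, adjusted p = 0.0026) and RBFOX2 by 0.97 (SE 0.19, adjusted p = 0.00346). RBM47 and QKI, chosen after their values were seen, differed by 0.18 (SE 0.19) and 0.30 (SE 0.21), and neither passed at its brightest probe (adjusted p = 0.455 and 0.271), although a dimmer RBM47 probe, ILMN_1689046, rose by 0.63 (adjusted p = 0.0303).

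**Figure D4:**
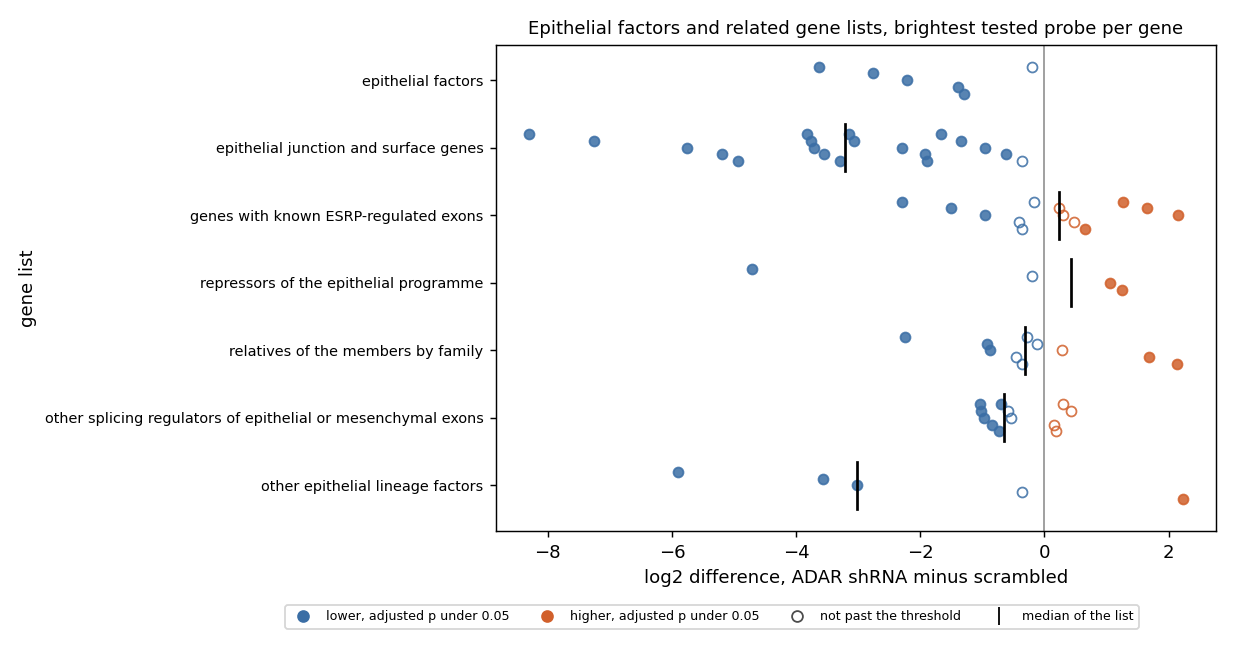
Log2 difference, ADAR shRNA minus scrambled (x), of the tested epithelial factors and of the brightest tested probe of each gene in 6 related lists (y). Filled points passed an adjusted p of 0.05 (blue lower, orange higher), open points did not, and a black bar marks each list's median, which is not drawn for the epithelial factors. Junction and surface genes lie furthest to the left with a median of -3.21, and the family relatives and ESRP target genes spread over both sides of 0.

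Markers of other cell types moved with the groups in part. Of 5 haematopoietic markers with a probe, CD14 rose by 4.01 (SE 0.28) and CD68 by 1.43 (SE 0.20) at its brightest probe, with its other probes at 1.08 and 0.30 short of the threshold (limma adjusted p = 0.0569 and 0.301), PTPRC, CD3E and LYZ were undetected on all 4 arrays, and the summed raw signal of the list was 2239 to 2365 on the scrambled and 3178 to 3940 on the ADAR shRNA arrays. Of 8 fibroblast markers 3 were tested: COL1A1 and LUM, undetected on both ADAR shRNA arrays, were at least 1.29-fold and 2.14-fold lower, PDGFRB, detected on 1 of 2 scrambled arrays, was at least 1.49-fold higher, and the summed signal was 900 to 993 against 745 to 782. Endothelial PECAM1 differed by -0.41 (limma adjusted p = 0.138), CDH5, VWF and KDR were undetected on all 4 arrays, and the sums were 215 to 243 against 198 to 209. These sums are of uncorrected signal over all probes of each list, undetected ones included. The ADAR shRNA arrays were also dimmer, with raw medians of 58.4 and 56.8 against 66.7 and 61.0. The part of these marker differences in the levels of the epithelial factors was not tested.

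Likeness of pattern was measured as the root mean square difference of mean-centred log2 values over the 4 arrays, against the ELF3 probe, which had the highest mean of the 6. The closest genes outside the set were CEP131, a centrosomal protein gene, at 0.088, PHLDA2, an imprinted gene, at 0.139 and PARP10, an ADP-ribosyltransferase gene, at 0.153. Their log2 differences were -2.32, -2.46 and -2.24, near that of ELF3, which follows from how they were chosen.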

How the data were processed

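The deposited scanner table gave, per the file headers, a mean intensity per probe on a linear scale, a bead count, the standard error over beads and a detection p-value for each of 47322 probes on each of 4 Illumina BeadChips, and the authors exported it with GenomeStudio, per the submitters' processing notes (version not given in the sources used here). A deposited table of processed intensity values, of unstated normalization, ranked probes as the raw signal did (Spearman rank correlation of 1 on each array) and served as an alternative. Median bead numbers were 19 to 21 per array, and the small number of arrays limits the precision.

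Intensities were corrected with normexp from detection p-values (offset 16), quantile normalized and log2 transformed in limma 3.58.1, R 4.3.3. Probes with a detection p under 0.05 on at least 2 arrays (21263) were fitted with lmFit and eBayes (2 residual and 5.83 prior degrees of freedom, no replicate block), and p-values were 2-sided and adjusted by Benjamini-Hochberg over all of them. The fit was tested on simulated data. Rose and fell mean an adjusted p under 0.05, and SE is the moderated standard error. Probes were named from the platform annotation: 30113 had 1 symbol, 8 had several and 17201 were not listed and stay unnamed, so listed genes with no named probe were not analysed here. Lists were counted by each gene's brightest tested probe.

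The members, lists and naming rule were chosen with earlier results of these data known. The rule named every probe of the 9 genes, ADAR, up to 3 rises and 3 falls per list among called genes with separated groups, the repressors, CDKN2A and MTAP, and the 3 genes closest in pattern. Upstream sequences came from RefSeq, build GRCh38.p14. The lowest bound over 3 background settings was taken after seeing the data. Alternatives varied background correction, normalization, filter, variance model, feature, block and replicates.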

Additional observations from a re-analysis of the deposited data

How the results depend on the processing

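The falls of OVOL2, GRHL2, ELF3, KLF5 and ESRP1 kept their direction and stayed past the threshold, and GRHL1 stayed short of it, in each of the 14 alternatives that gave a value. Requiring a detection p under 0.01 on all 4 arrays gave none, because it removed every probe of the set. That filter left 16 of 35 tested listed genes called, in place of 44 of 64. Of all probes it left 6976 of 13130 called (53.1%), in place of 10750 of 21263 (50.6%). With 1 probe per gene 7044 of 12197 features were called (57.8%). ESRP1 came closest to the threshold (adjusted p = 0.0435 with no filter on detection). Leaving out 1 array at a time, with the lone sample assumed to vary like the other group, gave -3.71 to -3.55 for OVOL2, -3.05 to -2.49 for GRHL2, -2.75 to -1.67 for ELF3, -1.53 to -1.25 for KLF5, -1.63 to -0.95 for ESRP1 and -0.39 to -0.0028 for GRHL1. Under the same omissions 39 to 43 listed genes and 8105 to 9316 probes were called. The ADAR probe ILMN_2320964 turned to 0.085 without scrambled replicate 1 (adjusted p = 0.809), was -0.46 without scrambled replicate 2, and passed when arrays were scaled to 1 median (-0.90) or left unscaled (-1.04). The cause was not tested. Replicate numbers in the titles are not stated to pair samples, and same-numbered arrays deviated together only weakly (r = 0.142 over probes, across 2 pairs). With the replicate number as a block 5 of the 6 probes were called, as without it, and 45 listed genes and 11573 probes were called. Signal near background limits the fold of each factor to a bound.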
